A study of Mus musculus with 10 samples.

Results

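Muscle of vehicle-injected hSA::Fv2E-PERK transgenic mice was compared with muscle of untreated wild type mice. The comparison rests on 4 of the 10 arrays of the series, 2 of the group Mouse_TG_Muscle_Vehicle and 2 of the group Mouse_WT_Muscle_UT, chosen by their labels. All 4 samples were total RNA of muscle from male C57BL/6J mice, hybridised to single-colour Agilent mouse arrays after Cy3 labelling of 150 ng. The transgenic mice carry Fv2E-PERK under hSA, the skeletal actin promoter, and received the vehicle (4% ethanol, 10% PEG-400 and 1.75% Tween-20 in water) by intraperitoneal injection 12 h before muscle was taken. The wild type mice were not injected, so that genotype and injection differ together. A further 2 arrays of transgenic muscle, taken 12 h after AP20187 at 1 ng/g, entered the fit as another group. Age, the muscle dissected, the time of day and whether a pair of arrays holds separate animals are not given in the sources used here, and p-values therefore measure the spread between these samples, which may be technical.

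PERK is a kinase of the endoplasmic reticulum membrane that phosphorylates the translation factor eIF2alpha when unfolded proteins accumulate. Phosphorylated eIF2alpha slows general translation and favours translation of ATF4, a transcription factor that raises genes for amino acid synthesis and transport, tRNA charging and stress hormones. This programme is the integrated stress response (ISR). In Fv2E-PERK the kinase is fused to domains that are paired by the compound AP20187, so that vehicle-injected mice show the muscle that carries the fusion without the compound. ATF4 and its CCAAT/enhancer binding protein partners read a composite element whose core is TGATGNAA.

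The genes on which the comparison turns include Fgf21, which encodes an endocrine hormone, and Asns and Slc7a11, which encode asparagine synthetase and the cystine carrier. The 250 bases upstream of their RefSeq starts (GRCm38.p6) were searched on both strands for TGATGNAA, and are shown because all 3 hold it, with the match in capitals. Fut1 is added as the divergent neighbour of Fgf21: its start lies 2116 bases from that of Fgf21 on the opposite strand, and its window holds no match. The windows are chr6:7693210-7693459 on the minus strand for Asns, chr7:45615491-45615740 on the minus strand for Fgf21, chr3:50443614-50443863 on the minus strand for Slc7a11 and chr7:45617356-45617605 on the plus strand for Fut1.
Asns: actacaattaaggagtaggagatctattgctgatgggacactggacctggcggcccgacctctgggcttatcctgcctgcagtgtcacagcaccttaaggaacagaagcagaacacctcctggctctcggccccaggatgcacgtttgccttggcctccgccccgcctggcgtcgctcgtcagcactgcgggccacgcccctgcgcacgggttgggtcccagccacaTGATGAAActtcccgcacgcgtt
Fgf21: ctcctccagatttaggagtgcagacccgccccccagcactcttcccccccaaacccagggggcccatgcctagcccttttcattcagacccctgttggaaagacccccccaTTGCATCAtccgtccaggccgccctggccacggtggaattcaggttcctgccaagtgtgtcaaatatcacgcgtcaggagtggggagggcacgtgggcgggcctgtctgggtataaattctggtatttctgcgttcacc
Slc7a11: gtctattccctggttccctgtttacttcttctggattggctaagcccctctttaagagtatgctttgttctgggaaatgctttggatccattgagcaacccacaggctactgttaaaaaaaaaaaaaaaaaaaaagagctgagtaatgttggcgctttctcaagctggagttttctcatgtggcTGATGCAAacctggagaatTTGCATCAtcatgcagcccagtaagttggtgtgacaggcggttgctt
Fut1: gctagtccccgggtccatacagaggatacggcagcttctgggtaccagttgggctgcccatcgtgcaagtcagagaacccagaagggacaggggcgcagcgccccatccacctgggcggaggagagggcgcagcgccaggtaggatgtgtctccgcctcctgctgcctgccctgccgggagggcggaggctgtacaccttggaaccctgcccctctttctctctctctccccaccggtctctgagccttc
The match began 23 bases before the start of Asns and 139 bases before that of Fgf21, while Slc7a11 had matches at 66 and 47 bases. Among genes tested that have a window in the table, 2.62% (282 of 10780) held the motif. The share was 5.49% (29 of 528) among genes at least 2-fold higher and 4.76% (18 of 378) among genes at least 2-fold lower. It was held by 2 of 14 higher serine and one-carbon genes and by 2 of 12 of the named rises with a window, and the windows of Trib3, Psat1, Phgdh, Psph, Mthfd2 and Gdf15 held none. A match describes letters and shows no binding.

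Levels are given as log2 intensity minus the 75th percentile of the array, for replicate 1 and then replicate 2, and levels of different genes are not comparable because their probes differ. A gene passed the test at a limma adjusted p (Benjamini-Hochberg over 13543 genes) under 0.05. Of the gene spots, 51.8% and 53.1% were well above background in wild type and 49.1% and 49.0% in transgenic vehicle muscle, and the number of arrays limits the precision. The 12 muscle markers were well above background on all 4 arrays. Their summed log2 level was 13.38 and 13.18 in wild type and 13.38 and 13.35 in transgenic vehicle muscle. Of these markers 1 was higher and 4 were lower (41.7% passed, against 38.3% of all genes), with log2 changes from -1.59 to 0.47. The wild type arrays were scanned in 1 session and the transgenic arrays in another, so that scan session and genotype cannot be told apart. How the arrays were shared between slides is not clear from the scanner headers, so that whether slide follows genotype is not known. In bulk tissue, fewer cells of a type and less RNA per cell cannot be told apart either.

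Eif2ak3, the gene for PERK, stood at -1.35 and -1.27 in wild type and at -1.23 and -0.99 in transgenic vehicle muscle. Its log2 change was 0.20 (SE 0.16, adjusted p = 0.362). The fused stretch of PERK is not stated in the labels. Whether this probe lies inside it is not known, so that its level was not used to check a label.

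The transgenic vehicle muscle differed from wild type muscle in 5184 of 13543 genes (38.3%), of which 3478 were higher (25.7%) and 1706 lower (12.6%). A change of at least 2-fold was found for 1132 genes (8.36%), of which 642 were higher (4.74%) and 490 lower (3.62%). Both arrays of a group lay on the same side of both of the other in 71.3% of genes. The split by direction moved with the scaling: 67.1% of calls were higher with the 75th percentile, 53.1% after quantile normalization, 47% with the percentile over detected probes, 83.5% with median scaling and 51.5% after normexp background correction. The median log2 change over all genes was 0.09, against 0.26 with median scaling and -0.07 with the percentile over detected probes. Genes that passed in the same direction under all 5 other sets of values (these 4 and the authors' deposited table) numbered 1934 higher (14.3%) and 948 lower (7.0%), and are called scaling-independent in what follows. The count of calls was 3116 without wild type replicate 1, 3423 without wild type replicate 2 and 3278 without transgenic vehicle replicate 2.

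**Figure D1:**
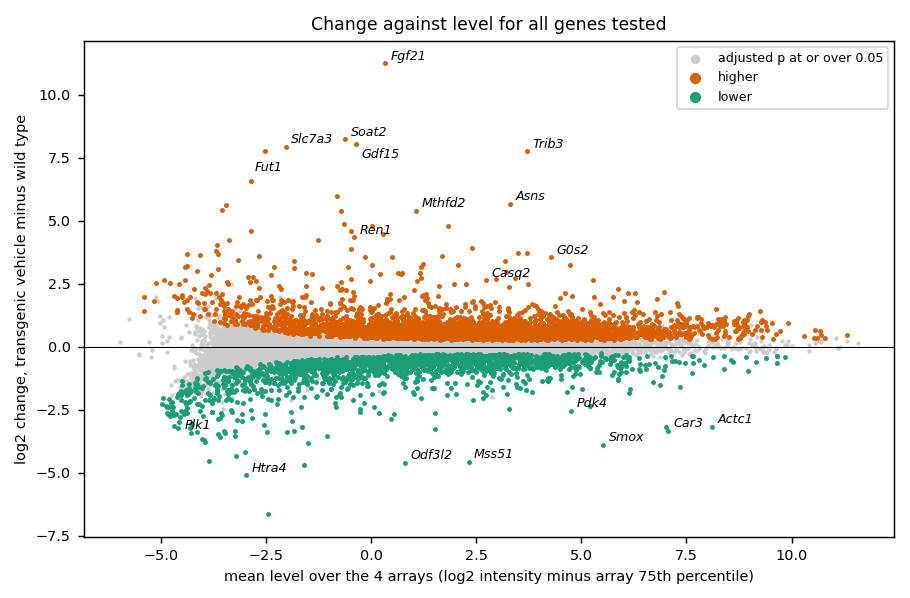
Log2 change, transgenic vehicle minus wild type, against the mean level over the 4 arrays for the 13543 genes tested, with higher genes in orange, lower genes in green and genes that did not pass in grey. The largest rises lie far outside the band that holds most genes, with Fgf21, whose wild type signal is not well above background, at its fitted 11.24, while the large falls Smox, Car3 and Actc1 belong to brightly measured genes.

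Fgf21 stood at -4.18 and -6.42 in wild type, not well above background on either array, and at 5.89 and 6.01 in transgenic vehicle muscle. With the background limit in place of the wild type signal it was at least 1163-fold higher (adjusted p = 2.38e-05). Such bounds set the bright group against, per array, the higher of the lowest signal well above background and the dim probe's own. Gdf15, a distant TGF-beta family member that signals to the hindbrain, stood at -4.36 and -4.39 in wild type, not well above background, and at 3.72 and 3.63 in transgenic muscle. It was at least 249-fold higher (adjusted p = 1.75e-08). Adm2, the gene for the peptide intermedin, stood at -6.06 and -6.24 in wild type and at 0.49 and 0.39 in transgenic muscle, at least 26.4-fold higher (adjusted p = 6.08e-07). In these 3 genes the transgenic arrays lay close to each other and the groups were far apart. The bounds hold for this background correction. After normexp the fitted log2 changes were 7.27 for Fgf21, 4.9 for Gdf15 and 2.28 for Adm2, each below the bound and past the test. Bounds given below for other genes also hold for this background correction only. Their normexp changes were smaller than the bound for Soat2 (4.79), Slc7a3 (3.67), Nacad (3.46), Pck2 (0.86), Ccnb2 (-1.23) and Per2 (-0.55).

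The myokine and hormone list had 11 of 49 tested members higher and 5 lower (32.7% passed, against 38.3% of all genes). Its median log2 change was 0.01. Scaling-independent were 10 higher and 2 lower members (20.4% and 4.1%, against 14.3% and 7.0% of all genes). Fgf7, a keratinocyte growth factor, stood at -0.57 and -0.22 in wild type and at 2.68 and 2.85 in transgenic muscle, 8.94-fold higher (log2 change 3.16, SE 0.15, adjusted p = 1.82e-05). Stc2, the stanniocalcin glycoprotein that inhibits the IGF binding protein protease PAPP-A, stood at -2.91 and -3.69 against -1.02 and -1.0, 4.89-fold higher. Igf2, a growth factor of fetal and regenerating muscle, stood at -1.15 and -1.71 against 0.49 and -0.22 (2.96-fold, adjusted p = 0.00341). Ostn, which encodes the natriuretic-pathway myokine osteocrin, was 2.63-fold higher and Metrnl, which encodes meteorin-like, 1.95-fold higher. Ccn2, which encodes connective tissue growth factor, stood at 3.97 and 4.38 in wild type and at 2.66 and 2.73 in transgenic muscle, 2.79-fold lower (adjusted p = 0.000332). Mstn, the gene for the growth inhibitor myostatin, had a log2 change of -0.01 (SE 0.22, adjusted p = 0.988), and Igf1 of -0.10 (SE 0.12, adjusted p = 0.557).

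**Figure D2:**
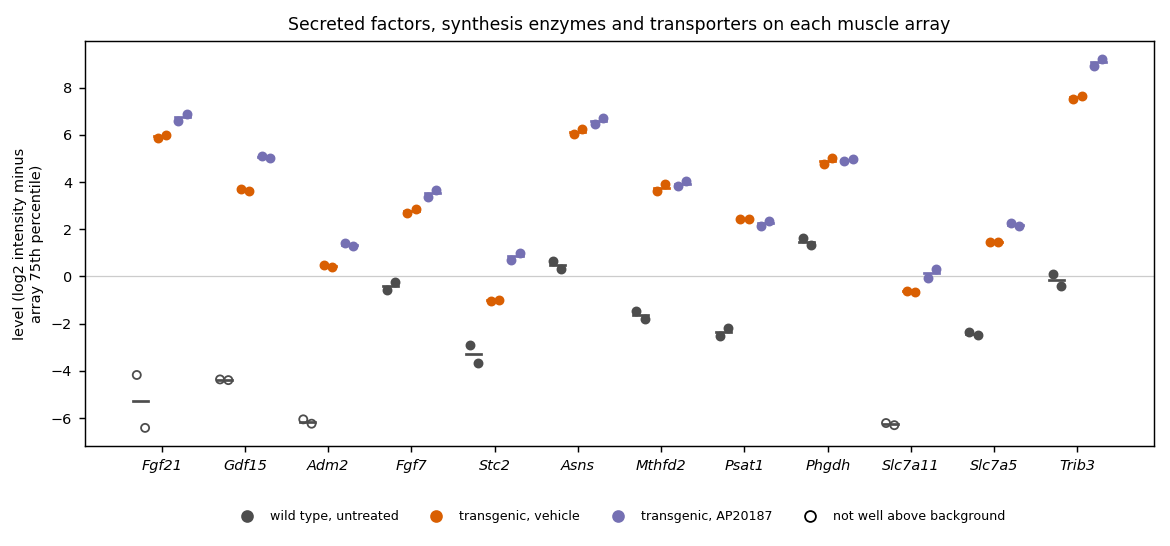
Level on each of the 6 muscle arrays (log2 intensity minus the array's 75th percentile) of 12 genes for secreted factors, synthesis enzymes, carriers and the pseudokinase Trib3. Points are arrays, lines are group means and open points are not well above background. In each gene both transgenic vehicle arrays lie above both wild type arrays, and heights of different genes are not comparable.

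Serine and one-carbon synthesis with its amino acid carriers was the list with the highest median, 2.47 log2. Of 20 tested members 17 were higher and 1 was lower, the same counts under quantile, detected-percentile, median and normexp scaling, and all 18 were scaling-independent. Asns stood at 0.65 and 0.30 in wild type and at 6.03 and 6.24 in transgenic muscle, 50.5-fold higher (log2 change 5.66, SE 0.15, adjusted p = 6.96e-07). Mthfd2, the mitochondrial one-carbon dehydrogenase of embryonic and tumour cells, stood at -1.46 and -1.79 against 3.62 and 3.90, 41.9-fold higher (adjusted p = 1.03e-06). All enzymes of serine synthesis from 3-phosphoglycerate were higher. Phgdh, the first of them, stood at 1.61 and 1.32 against 4.76 and 5.0 (log2 change 3.41). Psat1, the aminotransferase, stood at -2.53 and -2.20 against 2.43 and 2.44 (27.9-fold). Psph, the phosphatase, stood at 0.73 and 0.71 against 2.22 and 2.44 (3.05-fold). Of the mitochondrial folate enzymes, Aldh1l2 had a log2 change of 2.55, Mthfd1l of 1.90 and Shmt2 of 0.72, and of the cytosolic ones Shmt1 had a change of 0.71 and Mthfd1 of 0.59. Cth, which makes cysteine, was 11.8-fold higher, as was Aldh18a1, which starts proline synthesis.

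Amino acid carriers changed in opposite directions. Slc7a11 stood at -6.21 and -6.30 in wild type, not well above background, and at -0.62 and -0.65 in transgenic muscle, at least 12.5-fold higher (adjusted p = 4.4e-06). Slc7a5, the large neutral amino acid exchanger, stood at -2.36 and -2.48 against 1.46 and 1.44 (14.6-fold, log2 change 3.87, adjusted p = 1.14e-06). Its change was 1.57 with the mean over its probes in place of the brightest, and its heavy chain Slc3a2 had a log2 change of 1.93. Among cationic carriers, Slc7a1 was 9.42-fold higher, and Slc7a3, normally a brain carrier, stood at -6.20 and -5.79 against 1.78 and 2.10, at least 74.6-fold higher (adjusted p = 6.96e-07). Slc38a3, a glutamine carrier, stood at 1.90 and 1.71 against 0.92 and 0.94 and was 1.83-fold lower (adjusted p = 0.000871). Slc38a2, another carrier known as an ATF4 target, had a log2 change of -0.01 (SE 0.14, adjusted p = 0.962), and it was picked out after its value was seen.

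The largest fall in the list of amino acid breakdown was in polyamine metabolism. Smox, which oxidises spermine, stood at 7.33 and 7.62 in wild type and at 3.56 and 3.59 in transgenic muscle, 14.9-fold lower (log2 change -3.90, SE 0.11, adjusted p = 1.03e-06). Amd2, a copy of the gene for S-adenosylmethionine decarboxylase that arrays may not separate from its near-identical parent Amd1, stood at 8.41 and 8.80 against 5.28 and 5.58, 9.04-fold lower. Odc1, the ornithine decarboxylase gene, stood at 4.45 and 4.49 against 3.46 and 3.81 (1.78-fold lower, adjusted p = 0.00225). Sat1, which acetylates spermidine and spermine, was 1.48-fold higher. The list, which holds Smox, Odc1 and Sat1, had 7 of 30 members higher and 3 lower (33.3% passed, against 38.3% of all genes). Its median of 0.08 turned to -0.06 after quantile normalization. Its higher members included Bckdhb (0.77), a subunit of the branched-chain keto acid dehydrogenase.

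Genes of glucose handling passed the test in both directions. Pdk4, the kinase that shuts pyruvate dehydrogenase and rises in fasting, stood at 5.23 and 6.82 in wild type and at 3.49 and 3.47 in transgenic muscle, 5.85-fold lower (log2 change -2.55, SE 0.41, adjusted p = 0.00277), with the wild type arrays far apart: the log2 change was -1.75 without wild type replicate 2 and -3.35 without wild type replicate 1. Pfkfb3, which makes the activator of phosphofructokinase, stood at 4.43 and 5.28 against 3.45 and 3.58 (2.53-fold lower), and Slc16a3, the lactate exporter, at 7.61 and 7.41 against 6.21 and 6.47 (2.26-fold lower). Gbe1, the glycogen branching enzyme, stood at 3.71 and 3.85 against 5.66 and 5.90 and was 4-fold higher (adjusted p = 3.67e-05). Ldhb, the heart-type lactate dehydrogenase subunit, was 1.83-fold higher. In the glycolysis and glycogen list 6 of 37 members were higher and 14 lower (54.1% passed, against 38.3% of all genes). The list's median was -0.06 (0.12 with median scaling, -0.44 after quantile normalization), and 4 higher and 9 lower members were scaling-independent. The glucose carrier gene Slc2a4 had a log2 change of 0.15 (adjusted p = 0.228), which became -0.44 after quantile normalization (adjusted p = 0.00298).

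In the fatty acid uptake and oxidation list 21 of 37 members were higher and 2 lower, with a median of 0.45, against 10 higher and 6 lower after quantile normalization and a median of 0.09. The scaling-independent members were 10 higher and 1 lower. Acot2, a mitochondrial acyl-CoA thioesterase whose sequence is close to that of Acot1, stood at -0.76 and -0.69 in wild type and at 2.41 and 1.93 in transgenic muscle (7.45-fold higher, adjusted p = 2.88e-05). Eci2, an enoyl-CoA isomerase, stood at 4.85 on both wild type arrays and at 6.21 and 6.17 (2.53-fold higher). Fabp3, the muscle fatty acid binding protein, stood at 8.45 and 8.27 against 9.49 and 9.31 (2.06-fold higher), the mitochondrial carnitine carrier Slc25a20 was 1.98-fold higher and Acadl, the long-chain dehydrogenase, 1.87-fold higher. Acox2, a peroxisomal oxidase of branched-chain and bile acid precursors that lies outside the list, stood at -3.23 and -2.90 against 1.75 and 1.84 (29.1-fold higher, adjusted p = 1.66e-06). Ucp3, the mitochondrial uncoupling protein of muscle, stood at 0.75 and 1.23 against 0.34 and 0.02 (1.75-fold lower, adjusted p = 0.0107).

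Lipid storage genes had 9 of 27 members higher and 4 lower (48.1% passed, against 38.3% of all genes). G0s2, the inhibitor of the lipase ATGL, stood at 2.85 and 2.13 in wild type and at 5.98 and 6.11 in transgenic muscle, 11.7-fold higher (log2 change 3.55, SE 0.21, adjusted p = 4.29e-05). The droplet coat gene Plin5 was 1.99-fold higher, the lipogenic factor gene Srebf1 2.69-fold higher and Dgat2, which makes triglyceride, 1.74-fold higher. Me1, the malic enzyme that supplies NADPH, was 2.1-fold lower. Soat2, a cholesterol acyltransferase of intestine and liver, stood at -4.88 and -4.59 in wild type, not well above background, and at 3.42 and 3.58 in transgenic muscle, at least 220-fold higher (adjusted p = 2.04e-07). In the sterol synthesis list 6 of 21 members were higher and 1 lower (33.3% passed, against 38.3% of all genes). Mvd was 1.56-fold higher and Fdft1 1.48-fold. The lipid list's median was 0.23, and it was 0.07 after normexp.

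The direction of respiratory chain genes changed with the scaling. In the oxidative phosphorylation list 25 of 50 members were higher and 0 lower, but 6 were higher and 24 lower after quantile normalization and 7 higher and 26 lower after normexp, with medians of 0.31, -0.22 and -0.25. The 5 scaling-independent members were all higher (10.0% of the list, against 14.3% of all genes), among them 3 that are named here. Uqcrq, a small complex III subunit, stood at 8.79 and 8.77 against 9.57 and 9.93 (1.96-fold higher), Ndufs8 of complex I changed 1.64-fold and Cox6a2, the muscle form of a complex IV subunit, 1.58-fold. The citric acid cycle list had 8 of 24 members higher and 2 lower (41.7% passed, against 38.3% of all genes). Its median of 0.16 turned to -0.24 after quantile normalization. Pck2, the mitochondrial PEP carboxykinase, stood at -4.04 and -4.61 in wild type, not well above background, and at -1.49 and -1.61 in transgenic muscle, at least 6.14-fold higher (adjusted p = 0.000223). Idh2 was 1.94-fold higher and Got1 1.71-fold. Ppargc1a, the coactivator gene of mitochondrial biogenesis, had a log2 change of -0.18 (SE 0.11, adjusted p = 0.225), and passed with the percentile over detected probes (-0.33, adjusted p = 0.048) and with the mean over its probes (-0.37, adjusted p = 0.0419).

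Among genes of creatine, nucleotide and NAD metabolism 6 of 23 were higher and 4 lower (43.5% passed, against 38.3% of all genes). Gamt, which completes creatine synthesis, stood at 4.30 and 4.23 in wild type and at 3.21 and 3.10 in transgenic muscle (2.17-fold lower, adjusted p = 0.000197). Ampd1, the AMP deaminase of fast muscle, was 1.7-fold lower and the NAD synthesis enzyme gene Nmnat3 1.82-fold higher. Nmrk2, the muscle nicotinamide riboside kinase gene, stood at 7.08 and 7.43 against 6.24 and 7.29 and did not pass (log2 change -0.49, SE 0.30, adjusted p = 0.23). It passed after quantile normalization (-1.01, adjusted p = 0.0222), after normexp (-1.03, adjusted p = 0.0154) and without transgenic vehicle replicate 2 (-1.02, adjusted p = 0.00891). The list's median was 0.09, and it was -0.06 with the percentile over detected probes.

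**Figure D3:**
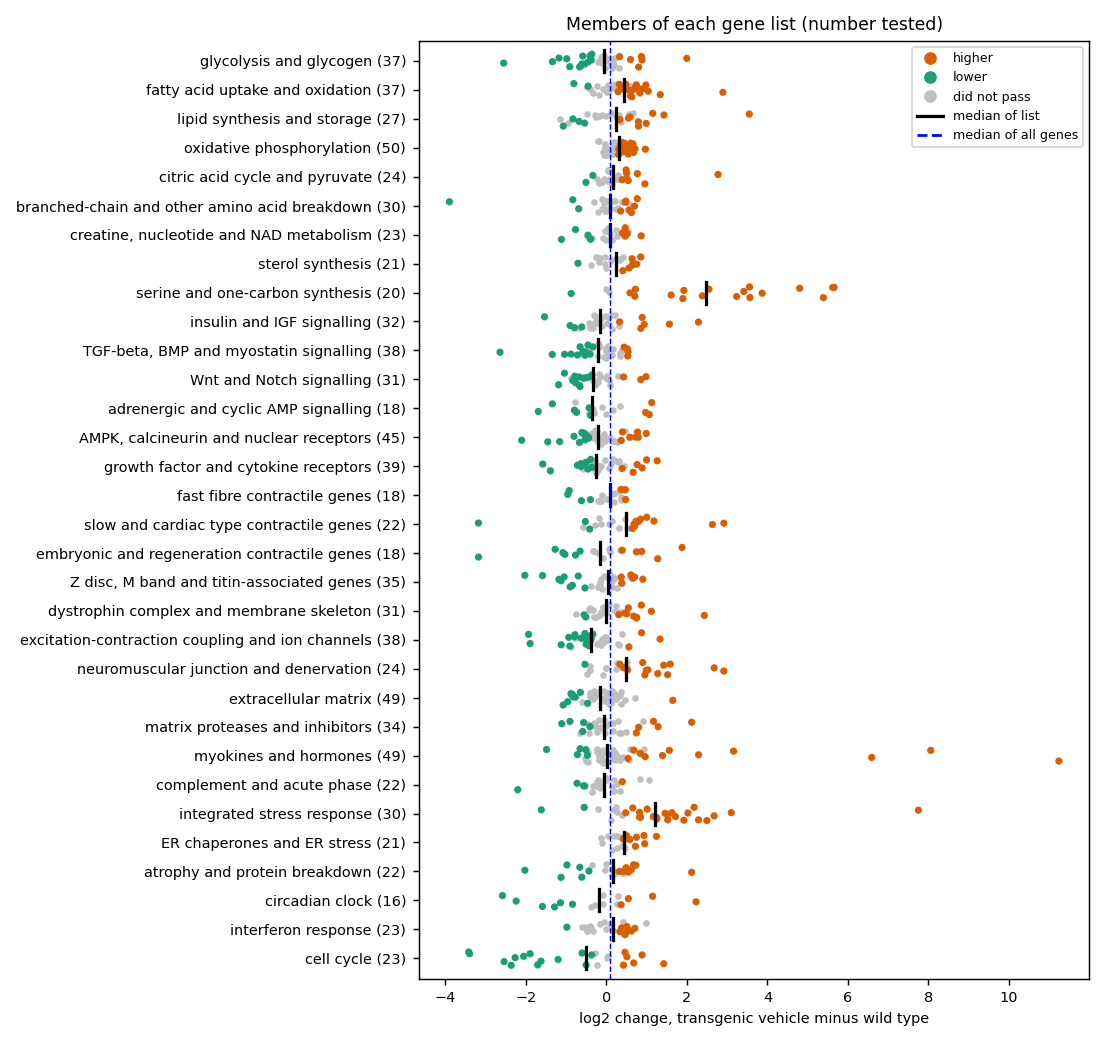
Log2 change, transgenic vehicle minus wild type, of every tested member of 32 gene lists, with the number tested in brackets. Orange and green points passed the test, black bars are list medians and the dashed line is the median of all genes (0.09). The serine and one-carbon list (median 2.47) and the ISR list (1.21) lie furthest to the right, and the cell cycle list (-0.50, or -0.37 with bounds) and the excitation-contraction coupling list (-0.38) lie to the left.

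Irs2, an insulin receptor substrate, stood at 3.17 and 3.38 in wild type and at 1.86 and 1.62 in transgenic muscle, 2.9-fold lower (adjusted p = 0.000453). Eif4ebp1, the translation repressor downstream of mTOR and a target of ATF4, stood at 4.80 and 4.66 against 6.93 and 7.11, 4.88-fold higher (adjusted p = 1.73e-05). Akt1 was 1.85-fold higher and Rheb, the GTPase that activates mTOR, 1.92-fold higher. The insulin and IGF list had 6 of 32 members higher and 4 lower, so that 31.2% passed against 38.3% of all genes, and its median of -0.16 turned to 0.02 with median scaling. Trib3, a pseudokinase that binds AKT and is raised by ATF4 and CHOP, had the largest change among named genes well above background on all 4 arrays: it stood at 0.10 and -0.41 against 7.53 and 7.66, 215-fold higher (log2 change 7.75, SE 0.17, adjusted p = 3.59e-07).

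Of the transforming growth factor and myostatin list 12 of 38 members were lower and 4 higher (42.1% passed, against 38.3% of all genes). Median scaling gave 5 lower and 6 higher. Of the Wnt and Notch list 12 of 31 were lower and 3 higher (48.4% passed), and median scaling gave 6 lower and 3 higher. Smad3, the signal transducer of TGF-beta and myostatin, stood at 4.86 and 4.61 in wild type and at 3.44 and 3.35 in transgenic muscle (2.53-fold lower, adjusted p = 0.000181). The receptor gene Acvr1b was 2.05-fold lower and the inhibitor gene Smad7 1.83-fold lower. Gdf11, a close relative of myostatin, stood at -3.45 and -3.62 against -6.23 and -6.12, not well above background, at least 1.29-fold lower (adjusted p = 0.00803). Wnt4 stood at 1.84 on both wild type arrays and at 1.01 on both transgenic arrays (1.78-fold lower), and the secreted modulators Sfrp2 and Dkk3 were 2.27-fold and 2.06-fold lower.

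Prkag3, the AMPK gamma subunit of glycolytic muscle, stood at 3.49 and 3.46 in wild type and at 1.37 and 1.38 in transgenic muscle (4.3-fold lower, adjusted p = 4.49e-05), and Prkag2 was 2.74-fold lower. The AMPK, calcineurin and nuclear receptor list had 7 of 45 members higher and 12 lower (42.2% passed, against 38.3% of all genes), the first including Eya1, a coactivator of muscle transcription factors (1.71-fold higher). The direction of that list's majority turned with median scaling, which gave 10 higher and 7 lower. Jak2, the kinase of growth hormone and cytokine receptors, stood at 3.40 and 3.15 against 1.83 and 1.94 (2.62-fold lower, adjusted p = 0.000191). The list of growth factor and cytokine receptors had 6 of 39 members higher and 10 lower (41.0% passed). Tnfrsf12a, the TWEAK receptor gene, was 2.4-fold higher, Tnfrsf19 2-fold and Il15ra 1.7-fold. Among adrenergic and cyclic AMP genes 3 of 18 were higher and 6 lower, and Pde4a, a cyclic AMP phosphodiesterase, was 2.53-fold lower, Nr4a1, an immediate early nuclear receptor, 3.23-fold lower, Adcy2 2.18-fold higher and Prkar1a 2.09-fold higher.

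In the slow and cardiac list 10 of 22 members were higher and 3 lower (5 higher and 3 lower after quantile normalization), with a median of 0.49, and 5 higher and 1 lower were scaling-independent. Casq2, the cardiac and slow calsequestrin, stood at 1.62 and 1.19 in wild type and at 4.23 and 3.86 in transgenic muscle (6.21-fold higher, adjusted p = 8.13e-05). Ankrd1, a titin-binding ankyrin repeat protein raised in stressed muscle, stood at -0.49 and -0.10 against 2.51 and 2.74 (7.56-fold higher, adjusted p = 2.38e-05). Myoz2, calsarcin of slow fibres, was 2.27-fold higher and Tnni1, the slow troponin I, 2-fold. Actc1, the cardiac actin gene, went the other way: it stood at 9.69 and 9.70 against 6.71 and 6.33 (9.04-fold lower, log2 change -3.18, SE 0.23, adjusted p = 0.000111).

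Myh7, the slow myosin, stood at 6.92 and 7.0 in wild type and at 7.15 and 6.52 in transgenic muscle (log2 change -0.12, SE 0.25, adjusted p = 0.729). Myh2 and Myh1 had changes of 0.37 and 0.38, each with an adjusted p of 0.155. Myh4, the fastest form, stood at 10.55 and 10.37 against 10.89 and 10.97 (1.39-fold higher, adjusted p = 0.012), and did not pass with no filter on dim probes (adjusted p = 0.129) or without wild type replicate 2 (adjusted p = 0.0949). These genes are close in sequence, and Myh1 turned to -0.10 after quantile normalization. The fast fibre list had 3 of 18 members higher and 4 lower (38.9% passed, against 38.3% of all genes). Casq1, the fast calsequestrin, was 1.9-fold lower and Mylk2, the skeletal myosin light chain kinase, 1.94-fold lower. Mybpc2, the fast myosin binding protein C, was 1.54-fold lower. The muscle dissected is not given for any sample, and its part in these differences was not tested.

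Genes of the myogenic programme split. Myog, the differentiation factor, stood at 0.36 and 1.00 in wild type and at 2.05 and 1.85 in transgenic muscle (2.42-fold higher, adjusted p = 0.0055), and Myh3, the embryonic myosin, at -0.18 and -0.93 against 2.11 and 0.55 (3.68-fold higher, adjusted p = 0.0451). Myod1 stood at 1.83 and 1.90 against 0.69 and 0.49 (2.41-fold lower, adjusted p = 0.000392), and Pax7, the satellite cell factor, was 2.04-fold lower. Mybph was 2.11-fold lower. The embryonic and regeneration list had 5 of 18 members higher and 6 lower (61.1% passed, against 38.3% of all genes). Its median of -0.15 was 0.03 with median scaling. Of 7 satellite cell markers 3 were higher (Cdh15, Itga7 and Sdc4) and 4 lower (Pax7, Calcr, Vcam1 and Chodl), with a median log2 change of -0.64 (-0.24 after normexp). Their summed level was 5.58 and 5.42 in wild type and 6.21 and 6.12 in transgenic muscle. Itga7 alone stood at 5.29 and 5.10 against 5.98 and 5.91, so that the sum mainly follows this gene. The part of these cells in the myogenic changes was not tested.

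In the neuromuscular junction and denervation list 13 of 24 members were higher and 1 was lower, with a median of 0.50, and 8 higher and 0 lower members were scaling-independent. Chrna1, the alpha subunit of the muscle acetylcholine receptor, stood at 2.46 and 2.55 in wild type and at 4.12 and 3.93 in transgenic muscle (2.87-fold higher, adjusted p = 8.13e-05). Chrnb1 stood at 0.03 and -0.12 against 0.98 and 0.91 (1.99-fold higher) and Chrnd at 0.85 and 0.83 against 1.8 and 1.78 (1.94-fold higher). Chrng, the fetal subunit, was 2.04-fold higher, and the adult subunit Chrne had a log2 change of 0.23 (SE 0.14, adjusted p = 0.217). Gadd45a, a stress gene raised in denervated muscle, stood at 1.45 and 1.83 against 4.38 and 4.26 (6.4-fold higher, adjusted p = 0.000159), and the deacetylase gene Hdac9 was 3-fold higher. Hdac4, a deacetylase that acts on the same programme, was 2.23-fold lower. The 10 Schwann cell and nerve markers, with a summed level of 5.30 and 5.05 in wild type and 5.24 and 5.46 in transgenic muscle, had 0 members that passed by limma in either direction and 1 at an unadjusted p under 0.05.

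Excitation-contraction coupling and ion channel genes had 17 of 38 members lower and 3 higher, with a median of -0.38, and lower members outnumbered higher ones under each scaling (9 against 6 with median scaling). Itpr1, an intracellular calcium release channel, stood at 2.72 and 3.21 in wild type and at 1.15 and 0.99 in transgenic muscle (3.71-fold lower, adjusted p = 0.000279). Kcnc1, a fast potassium channel, was 3.81-fold lower, and Kcnj11, the pore of the ATP-sensitive potassium channel, 2.17-fold lower. Orai1, the store-operated calcium channel, stood at 2.46 and 2.17 against 1.48 and 1.29 (1.91-fold lower), and Jph1, which ties the triad together, was 1.72-fold lower. Kcnn3, the apamin-sensitive channel that appears in denervated muscle, stood at -2.72 and -3.40 against -1.69 and -1.76 (2.52-fold higher, adjusted p = 0.0175).

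In the sarcomere, Ttn stood at 8.30 and 7.99 in wild type and at 6.88 and 6.23 in transgenic muscle (3-fold lower, adjusted p = 0.00102), and Neb was 1.86-fold lower and Obsl1 2.07-fold lower. The Z disc and titin list had 6 of 35 members higher and 9 lower (42.9% passed, against 38.3% of all genes). Scaling-independent were 0 higher and 7 lower members, and the list's median of 0.03 turned to -0.35 after normexp. Myoz3, a calsarcin of fast fibres, was 2.26-fold lower and Capn3, the titin-bound protease, 1.79-fold lower. The dystrophin complex and membrane list had 10 of 31 members higher and 2 lower (38.7% passed, against 38.3% of all genes). After quantile normalization 8 were higher and 7 lower. Sspn, which encodes sarcospan, stood at 5.32 and 5.22 against 6.12 and 6.16 (1.83-fold higher, adjusted p = 0.000446), Dtna, which encodes dystrobrevin, was 2.17-fold higher and Popdc3 1.68-fold higher.

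Matrix genes had 1 of 49 members higher and 9 lower (20.4% passed, against 38.3% of all genes). With median scaling 6 were higher and 6 lower. Fbln5, an elastic fibre protein, was the member that rose: it stood at 2.01 and 1.98 in wild type and at 3.52 and 3.77 in transgenic muscle (3.14-fold higher, adjusted p = 0.000172). Thbs4, of tendon and junction matrix, was 2.1-fold lower and Sparcl1 1.7-fold lower. The fibroblast and tendon markers, which share Thbs4 with the matrix list, had 0 of 14 higher and 5 lower (35.7% passed). With median scaling 1 marker was higher and 2 were lower. Their summed level was 9.08 and 8.99 in wild type and 8.77 and 8.70 in transgenic muscle. The part of these cells in the matrix result was not tested. Among proteases and inhibitors 5 of 34 were higher and 5 lower (29.4% passed, against 38.3% of all genes). Ctsl, the lysosomal protease cathepsin L, stood at 5.21 on both wild type arrays and at 7.37 and 7.29 (4.34-fold higher, adjusted p = 1.33e-05), Mmp11 was 2.44-fold higher, and Serpinh1, the collagen chaperone, 1.74-fold higher. Complement genes had 1 of 22 members higher and 4 lower (22.7% passed, against 38.3% of all genes), or 0 and 8 after quantile normalization. C3 was 1.66-fold lower, Serping1 1.48-fold lower and C6 at least 1.2-fold lower.

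Atrophy genes passed the test in both directions. Fbxo32, the ubiquitin ligase atrogin-1, stood at 3.12 and 4.25 in wild type and at 1.70 and 1.61 in transgenic muscle (4.07-fold lower, adjusted p = 0.00326). Trim63, the ligase MuRF1, stood at 6.22 and 6.36 against 5.24 and 5.10 (2.18-fold lower, adjusted p = 0.000414). The list as a whole had 8 of 22 members higher and 6 lower, or 3 and 8 after quantile normalization. Foxo1, the factor that drives both ligases, was 1.53-fold lower (adjusted p = 0.0261). Wild type replicate 2 was the higher array for Fbxo32, as it was for Pdk4.

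**Figure D4:**
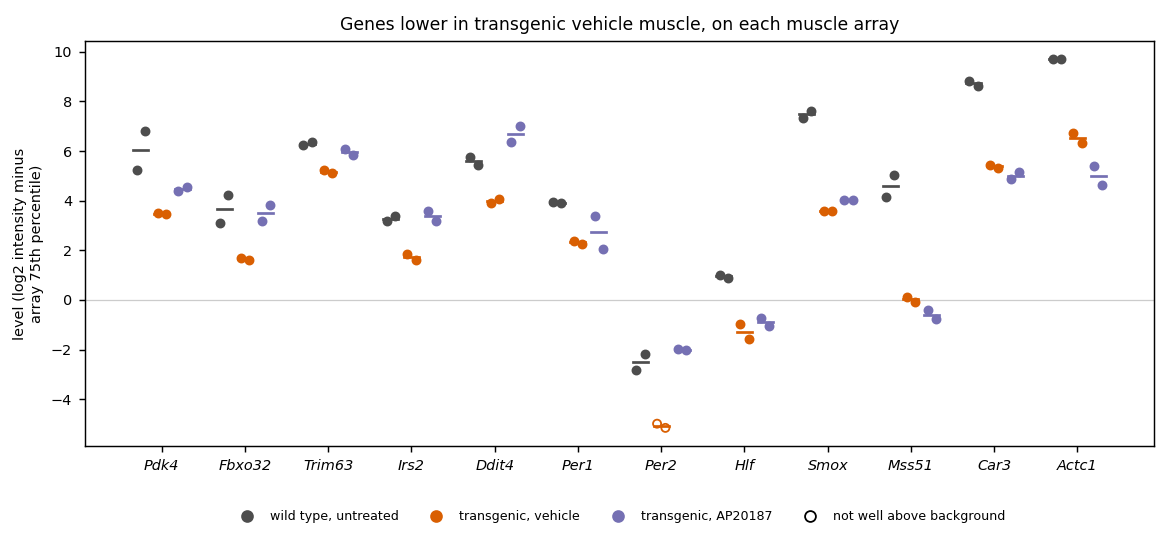
Level on each of the 6 muscle arrays (log2 intensity minus the array's 75th percentile) of 12 genes that were lower in transgenic vehicle muscle. Points are arrays, lines are group means and open points are not well above background. In each gene both transgenic vehicle arrays lie below both wild type arrays, and the wild type arrays spread most for Pdk4 and Fbxo32.

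Of the ISR list, 22 of 30 members were higher and 2 lower, with a median of 1.21, and 21 higher and 2 lower members were scaling-independent. Besides Trib3, Atf5 stood at 5.93 and 5.81 in wild type and at 8.01 and 8.09 in transgenic muscle (4.53-fold higher, adjusted p = 1.11e-05), Sesn2 was 5.65-fold higher and Atf4 2.9-fold higher. The glycyl tRNA synthetase gene Gars was 3.29-fold higher, and 9 of the higher members are tRNA synthetase genes. Ddit4, which restrains mTOR, stood at 5.76 and 5.43 against 3.91 and 4.06 and was 3.06-fold lower (adjusted p = 0.00105). Ppp1r15a, which directs dephosphorylation of eIF2alpha, had a log2 change of 0.11 (SE 0.12, adjusted p = 0.505) and Chac1 of 0.26 (SE 0.15, adjusted p = 0.197). Endoplasmic reticulum chaperone genes had 11 of 21 members higher and 0 lower, 6 of them scaling-independent; Hspa5, which encodes BiP, stood at 5.08 and 5.13 against 6.04 and 6.07 (1.93-fold higher) and Manf was 1.91-fold higher.

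Several clock genes were lower. Per2 stood at -2.81 and -2.17 in wild type and at -4.99 and -5.15 in transgenic muscle, not well above background, at least 2.65-fold lower (adjusted p = 0.000784). Per1 stood at 3.96 and 3.89 against 2.40 and 2.27 (3-fold lower), Hlf at 1.02 and 0.88 against -0.99 and -1.59 (4.72-fold lower, adjusted p = 0.000359) and Dbp at 5.04 and 5.12 against 4.08 and 3.80 (2.2-fold lower). The list had 4 of 16 members higher and 6 lower, the 6 being Per1, Per2, Dbp, Hlf, Bhlhe40 and Bhlhe41, and all 6 were scaling-independent. Cry1, a repressor of late phase, was 2.22-fold higher. The time of day of collection is not given, and its part in these differences was not tested. The clock factors read the E-box CACGTG, and the upstream windows of Per1 (chr11:69098699-69098948, plus strand) and Bhlhe41 (chr6:145865421-145865670, minus strand) are shown because they hold it, with the E-box in capitals.
Per1: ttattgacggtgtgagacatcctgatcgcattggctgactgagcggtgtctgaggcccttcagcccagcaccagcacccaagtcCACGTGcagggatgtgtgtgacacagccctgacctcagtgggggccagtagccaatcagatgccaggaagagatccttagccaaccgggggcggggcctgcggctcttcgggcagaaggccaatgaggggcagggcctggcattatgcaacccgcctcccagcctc
Bhlhe41: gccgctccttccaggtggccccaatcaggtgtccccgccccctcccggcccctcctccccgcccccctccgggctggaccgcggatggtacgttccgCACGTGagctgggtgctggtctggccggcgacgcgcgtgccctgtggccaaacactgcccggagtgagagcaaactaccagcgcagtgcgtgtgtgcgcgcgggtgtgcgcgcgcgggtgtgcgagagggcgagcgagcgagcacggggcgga
The E-box began 166 bases before the start of Per1 and 153 bases before that of Bhlhe41. Of the 6 lower clock genes 4 had windows in the table and 2 held it, against 9.55% of genes tested; for Per1 a second listed start had none.

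In the cell cycle list 13 of 23 members were lower and 6 higher, with a median of -0.50 (-0.37 with 5 members taken at their bound, and -0.26 after normexp), and 9 lower and 2 higher members were scaling-independent. Aurka, a spindle kinase, stood at 1.96 and 1.99 in wild type and at 0.08 on both transgenic arrays (3.71-fold lower, adjusted p = 5.86e-05), and Mki67, the proliferation marker, at -1.16 and -1.20 against -2.90 and -3.57 (4.16-fold lower). Ccnb2, a mitotic cyclin, was at least 8.63-fold lower and Plk1 at least 4.36-fold lower, both not well above background on the transgenic arrays. Cdkn1a, the p21 cell cycle inhibitor, stood at 1.90 and 0.58 against 2.76 and 2.57 (2.69-fold higher, adjusted p = 0.0151) and Ccnd2 was 1.85-fold higher. Of 14 macrophage and leucocyte markers 0 were higher and 3 lower (1 higher and 1 lower with median scaling), and 1 lower marker was scaling-independent (7.1%, against 7.0% of all genes). They had a summed level of 5.67 and 5.58 in wild type and 5.35 and 5.52 in transgenic muscle, and their part in the mitotic result was not tested. The interferon list had 8 of 23 members higher and 1 lower (39.1% passed, against 38.3% of all genes). Its higher members included B2m (1.63-fold) and Psmb9 (1.54-fold). After quantile normalization only 2 members were higher and 1 was lower.

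Genes outside the pathway lists complete the largest changes. Higher genes included Tenm4, a transmembrane teneurin (27.3-fold), Arhgap33, a GTPase activating protein (23.8-fold), Cdsn, the corneodesmosin of skin (21.9-fold), Reep6, an endoplasmic reticulum shaping protein (13.2-fold), and Nacad, which was at least 63.7-fold higher. Fut1, a fucosyltransferase, stood at -6.32 and -6.46 in wild type, not well above background, and at 1.29 and 1.42 in transgenic muscle, at least 49.8-fold higher (adjusted p = 2.04e-07; fitted log2 change 3.34 after normexp), beside its neighbour Fgf21. Ren1, the renin gene, stood at -2.70 and -2.45 against 1.92 and 1.62 (20.3-fold higher, adjusted p = 1.82e-05). Car3, the carbonic anhydrase of slow muscle and fat, stood at 8.83 and 8.62 against 5.46 and 5.31 (10.1-fold lower, adjusted p = 5.47e-06). Of 11 adipocyte markers 2 were higher and 1, Car3, was lower (27.3% passed, against 38.3% of all genes). Their median log2 change was 0.48 (0.07 after normexp), the opposite direction to Car3. Fabp4 was 1.4-fold higher and turned to -0.10 after normexp. The summed level, which includes the bright Car3, was 9.41 and 9.14 in wild type and 8.28 and 8.68 in transgenic muscle. Mss51, a mitochondrial protein of fast muscle regulated by myostatin, stood at 4.16 and 5.04 against 0.14 and -0.07 (23.8-fold lower, adjusted p = 4.29e-05). Odf3l2 was 24.1-fold lower, Golm1, a Golgi membrane protein, 9.57-fold, Rsph1, a radial spoke protein, 7.6-fold, Ctxn3 7.38-fold and Tlcd3b 6.43-fold. Htra4, a secreted serine protease, stood at 0.08 and -0.93 against -5.31 and -5.74, not well above background (at least 11.1-fold lower). Fgfbp1, a secreted carrier of fibroblast growth factors, was at least 7.95-fold lower, Fam25c at least 7.5-fold and Snph at least 7.16-fold. After normexp these log2 changes were smaller than the bounds, at -1.72 for Htra4, -1.11 for Fgfbp1, -0.99 for Fam25c and -1.26 for Snph.

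Some of these genes stood elsewhere on the AP20187 arrays, which share the wild type and vehicle arrays as controls and are given as levels only. Ren1 stood at -0.24 and -0.81 there, between its wild type and vehicle levels. Irs2 (3.57 and 3.18), Fbxo32 (3.18 and 3.83) and Per2 (-1.97 and -2.04) stood near wild type. Myog (5.10 and 5.70), Ankrd1 (4.97 and 5.15) and Gadd45a (5.14 and 5.77) stood above vehicle, while Actc1 (5.38 and 4.64) stood below it. Fgf21 (6.60 and 6.89), Asns (6.46 and 6.73) and Mthfd2 (3.83 and 4.04) stood within 1 log2 of the vehicle levels.

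**Figure D5:**
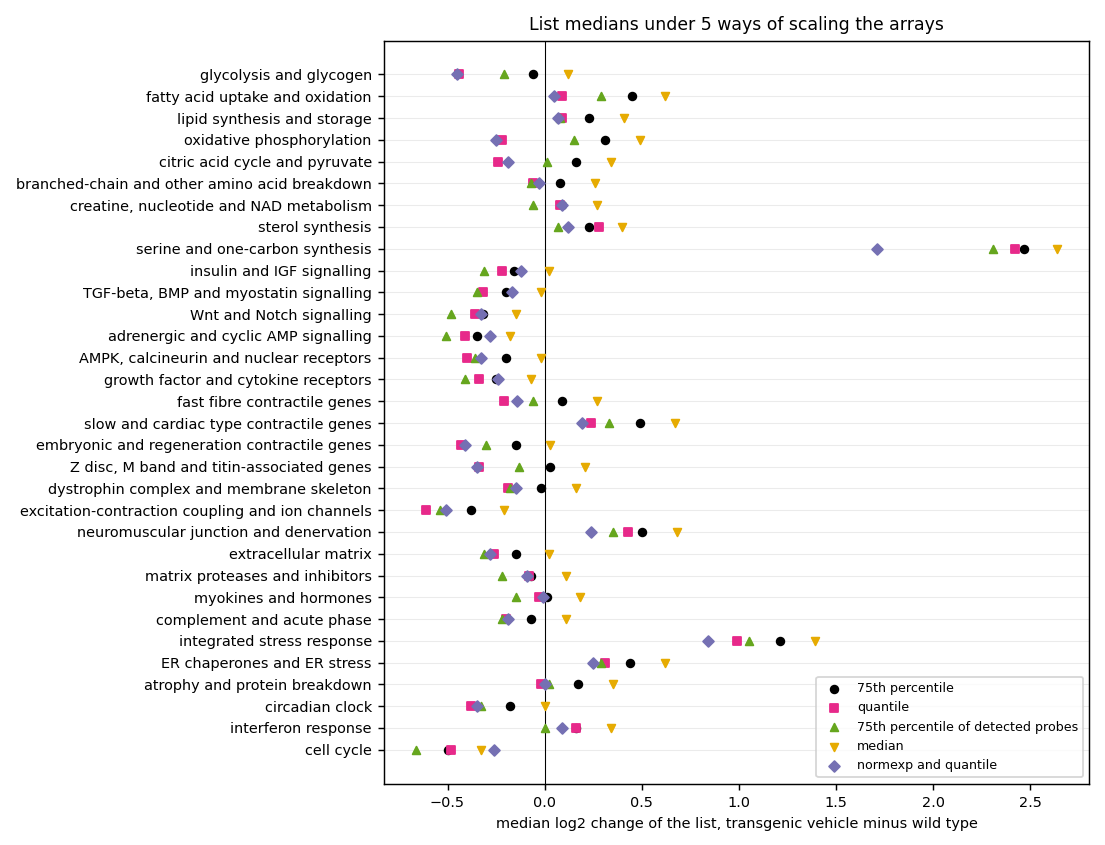
Median log2 change, transgenic vehicle minus wild type, of each of 32 gene lists under 5 ways of scaling the arrays. The serine and one-carbon list stays between 1.71 and 2.64, whereas oxidative phosphorylation runs from -0.25 to 0.49 and crosses 0.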

How the data were processed

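Each array was deposited as a scanner file whose spot intensity (gProcessedSignal, linear, background-subtracted) came from Agilent Feature Extraction (version 10.7.1.1), per the file headers and the submitters' processing notes. The files also give the flags for outliers, saturation and signal well above background. The authors also deposited a table of log2 values of the same arrays. Its differences between arrays followed those of the scanner values (r of at least 0.9999 in muscle), so that scale and direction are known and the centring is not; the median of its columns was -0.46 and -0.45 in wild type and -0.42 and -0.35 in transgenic vehicle muscle. It was used as an alternative.

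Control spots and spots with an outlier flag (0.160% to 0.251% on the 4 arrays, 0 saturated) were left out. The log2 intensity minus the 75th percentile of the array was averaged over spots of a probe. Accessions were named through a RefSeq table of GRCm38.p6: 26056 probes received 19752 symbols, 29625 stayed unnamed, and for 5270 genes with several probes the brightest was used. Tested were genes whose 2 arrays of at least 1 muscle group were well above background. The 6 muscle arrays were fitted with limma 3.58.1 in R 4.3.3 (lmFit, eBayes with a variance trend, 3 residual degrees of freedom), and folds are relative to the scaling. Array values correlated at 0.993 and 0.992 within the wild type and vehicle groups and at 0.967 between them. Fitting was tested on simulated data.

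Named are the 12 largest rises and falls among called genes well above background on all 4 arrays, leaving out clone and predicted names, the 6 largest bounds in each direction, up to 3 called members of smallest p per list (2 for stress and cell type lists), and 16 genes fixed by name. Further members of the 44 lists (32 of pathways and structures, 12 of markers) were picked out after their values were seen, and some genes that the rule picks are not reported. The members and lists were chosen with earlier results of these data known. Of 1138 list entries 79 were not tested. The alternatives were other scalings, background correction, filters, probe rules, fits and left-out arrays. Promoter windows come from RefSeq tables, in which 10780 of the genes tested had a window.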

Additional observations from a re-analysis of the deposited data

How the results depend on the processing

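The count of changed genes ran from 3116 to 5250 over fits that each left out 1 array, and the count changed at least 2-fold from 982 to 1222. After normexp, which used the median signal and was chosen after seeing the data, 430 genes changed at least 2-fold instead of 1132. The other fits gave 4426 to 6428 calls. Fitting the replicate number as a block gave 6428 calls, 1149 of them at least 2-fold, and Myh2 and Myh1 then passed (adjusted p = 0.0113 and 0.0169). Whether the numbers pair the samples is not given in the labels. Same-numbered deviations correlated at 0.0489 between wild type and vehicle and at 0.157 and 0.202 in the other pairs. With 2 samples a group these values cannot decide whether the samples are paired. Of 135 named genes that passed, 116 stayed past the threshold in the same direction wherever they were fitted, in 18 or 19 alternatives each (the stricter filter leaves out genes below background in a group). The 19 that lost it in at least 1 were Serpina1a, Got1, Fdft1, Tnfrsf19, Mybpc2, Thbs4, C6, Myh4, Itgam, Cd74, Csf3r, Camp, Nkg7, Emcn, Abcc9, Fabp4, Bpgm, Apoa2 and Ucp3. Signs turned for Fabp4 after normexp (-0.10), Myh1 after quantile normalization (-0.10) and normexp (-0.02), and Slc2a4 after quantile normalization (-0.44), the percentile over detected probes (-0.01) and normexp (-0.45). With median scaling Mstn turned to 0.17, Igf1 to 0.08, Myh7 to 0.06 and Ppargc1a to 0.00. Leaving out 1 array at a time gave a range from -0.22 to 0.21 for Mstn (0.13 without transgenic vehicle replicate 1), from -0.22 to 0.03 for Igf1, from -0.43 to 0.19 for Myh7 and from -1.02 to 0.04 for Nmrk2. Of these only Fabp4 had passed the test. The cause was not tested for any of these. A block for slide or scan session could not be fitted and the arrays of 1 session alone hold no wild type sample, so neither was run; normexp on mean signals was not run because the files used here hold median signals. Genes near background may carry wider errors, but the spread was not split by level. Over all genes tested the median SD between the 2 arrays of a group was 0.1 in wild type and 0.119 in vehicle muscle.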

Other observations

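Detection differed between the groups. On the 4 arrays, 86 genes were well above background on both transgenic vehicle arrays and on no wild type array. The reverse held for 362 genes. Of the 86 genes 63 passed the test, and of the 362 genes 159, against 38.3% of all genes. The lowest signal well above background also differed, at -4.265 and -4.296 in wild type and -3.947 and -3.845 in transgenic vehicle muscle. Its part in these counts was not tested. The 12462 genes well above background on all 4 arrays held 4864 of the calls.

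Some transcripts of liver proteins stood apart on wild type replicate 2, and these genes were picked out after their values were seen. Apoa2, of the brown fat and liver list, differed less between the wild type arrays, at 3.67 and 3.98. Serpina1a, which encodes an alpha-1-antitrypsin whose copies are nearly identical, stood at -1.38 and 2.86 in wild type and at -4.04 and -3.87 in transgenic vehicle muscle (at least 24.9-fold lower, adjusted p = 0.013). Its fitted log2 change was -4.69, but -2.57 without wild type replicate 2 and -6.82 without wild type replicate 1, and it did not pass after normexp (adjusted p = 0.0525) or without transgenic vehicle replicate 1 (0.0594) or 2 (0.062). Alb, the albumin gene, stood at -4.19 and 1.37 against -2.18 and -3.10 (adjusted p = 0.589), and Mup4, a major urinary protein gene, at 0.96 and 3.46 against -0.24 and 0.56 (adjusted p = 0.0457). The haemoglobin gene Hbb-bt was lowest on the same array, at 6.41 and 4.53 in wild type against 6.53 and 6.67 (adjusted p = 0.103), and the summed erythroid level was 8.38 and 6.88 in wild type against 8.27 and 8.37. Ciart, a clock repressor gene, stood at -6.17 and -3.86 in wild type against -2.25 and -3.32 (adjusted p = 0.0334), well above background on 1 of the 2 wild type arrays, and Cish, a target of STAT5, at 4.50 and 2.58 against 1.65 and 2.27 (2.99-fold lower, adjusted p = 0.0493).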
